A study of Homo sapiens with 6 samples.

Results

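Solute carriers are the largest group of membrane transport proteins in human cells, and 87 of their genes were among the 7150 genes that the authors' deposited table lists as changed in shikonin-treated breast cancer cells. The genes were taken by symbol: every SLC or SLCO gene of the table was kept, without the mitochondrial SLC25 carriers and without SLC7A1, SLC7A5, SLC7A11, SLC3A2 and SLC2A1. The same rule found 323 protein-coding genes in the GENCODE 29 annotation, so 26.9% of the annotated carriers were listed, against 34.7% of all 19936 annotated protein-coding genes. A carrier that was not listed was either not past the authors' thresholds or not tested, and its level is not held here.

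RNA was sequenced from MDA-MB-231, an established human triple-negative breast cancer line with a mesenchymal shape. The groups were 3 libraries of cells given 0.5 µM shikonin, a naphthoquinone of the gromwell root, for 24 h, and 3 libraries of control cells labelled as having no treatment. The dose is read as micromolar because its unit is written with a lower-case m. All 6 libraries came from the same unmodified line, labelled WT and grown in DMEM with serum and antibiotics, and no vehicle is named for the control cells. Whether the libraries of a group were separate cultures is not labelled, and the p-values then reflect no more than the spread of these libraries, which may be technical. The comparison asks which messages differ between treated and untreated cells, here among carriers.

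The table gives for each gene a mean normalized count over all libraries, a log2 fold change, its standard error and an adjusted p, with 0 columns of single libraries, so neither the depth nor the value of each library can be shown. Its header does not name the group on top of the fold, and genes marked "up" are read throughout as higher in shikonin. The implied group means printed here follow from the listed mean and fold, and the brackets after a fold hold its 95% interval from the listed standard error. Every listed gene differed by more than 1.5-fold with an adjusted p below 0.05 in the authors' deposited table. Of the line's expected markers, VIM, CAV1 and EGFR were listed and CD44 and AXL were not, with VIM at an implied 81887 normalized counts in shikonin cells and 46972 in control cells. EGFR had 1950 in shikonin cells and 11629 in control cells, 5.96-fold lower (4.73 to 7.52). Of the markers expected to be low, ERBB2 had 1090 in shikonin cells and 2174 in control cells, EPCAM had 174 in shikonin cells and 80.8 in control cells, and ESR1, PGR and CDH1 were not listed. Of 4 markers of other cell types, PECAM1 (284 in shikonin cells, 69.3 in control cells) and ACTA2 (147 in shikonin cells, 55.0 in control cells) were listed higher, PTPRC and COL1A1 were not listed, and their part in the results was not tested.

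Solute carriers move small molecules across membranes by changing shape, either letting a substance run down its own gradient or coupling it to sodium, protons or a counter-substance. Plasma membrane members feed the cell and set its volume and pH, while members in the Golgi, endosomes and lysosomes supply sugars and sulfate donors for glycans or return the products of digestion to the cytosol. In breast cancer cells they are best known for taking up glucose, amino acids and metals and for exporting lactate.

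More carriers fell than rose. Of the 87 listed members, 35 were higher and 52 lower in shikonin cells, so 40.2% were higher, against 50.8% of all listed genes. In bulk RNA a change in which cells are present and a change in RNA per cell cannot be told apart. Among all genes, 50.2% of the 14253 genes tested were called, 25.5% higher and 24.7% lower. The median log2 fold change was -0.75 over the members and 0.60 over all listed genes. No listed gene lies within 1.5-fold, so a median near an even split falls on one side of that gap or the other. These 2 medians therefore follow the shares above and do not measure a difference in size, and the same limit holds for medians of mixed groups below. The members that rose had lower counts: their median mean count was 180, against 602 for the members that fell. Of the 38 members whose mean count was 500 or more, 8 were higher and 30 lower in shikonin cells. Of the 21 with a mean below 100, 16 were higher and 5 lower. At 2-fold or more the counts were 27 higher and 29 lower, against 2341 higher and 2087 lower over all listed genes. At 4-fold or more 9 members were higher and 6 lower. The counts at 4-fold and the splits by mean count were not taken over all listed genes, so they are not shown to be particular to carriers. The smallest fold was 1.51 (SLC41A3), and 13 members lay within 10% of the 1.5-fold threshold.

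By SLC number, 34 of 49 annotated families had a listed member and 18 had more than 1. In 14 of these 18 the members went in both directions. The zinc exporters (SLC30), the sulfate and anion exchangers (SLC26) and the folate carrier family (SLC46) had every listed member lower in shikonin cells. The organic anion transporters (SLCO) had both listed members higher. However, SLCO1B3 no longer passed 1.5-fold when the group totals, summed over the listed genes only, were made equal. This setting is called equal totals below, and it is not a correction for the depth of the libraries, which is unknown.

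**Figure D1:**
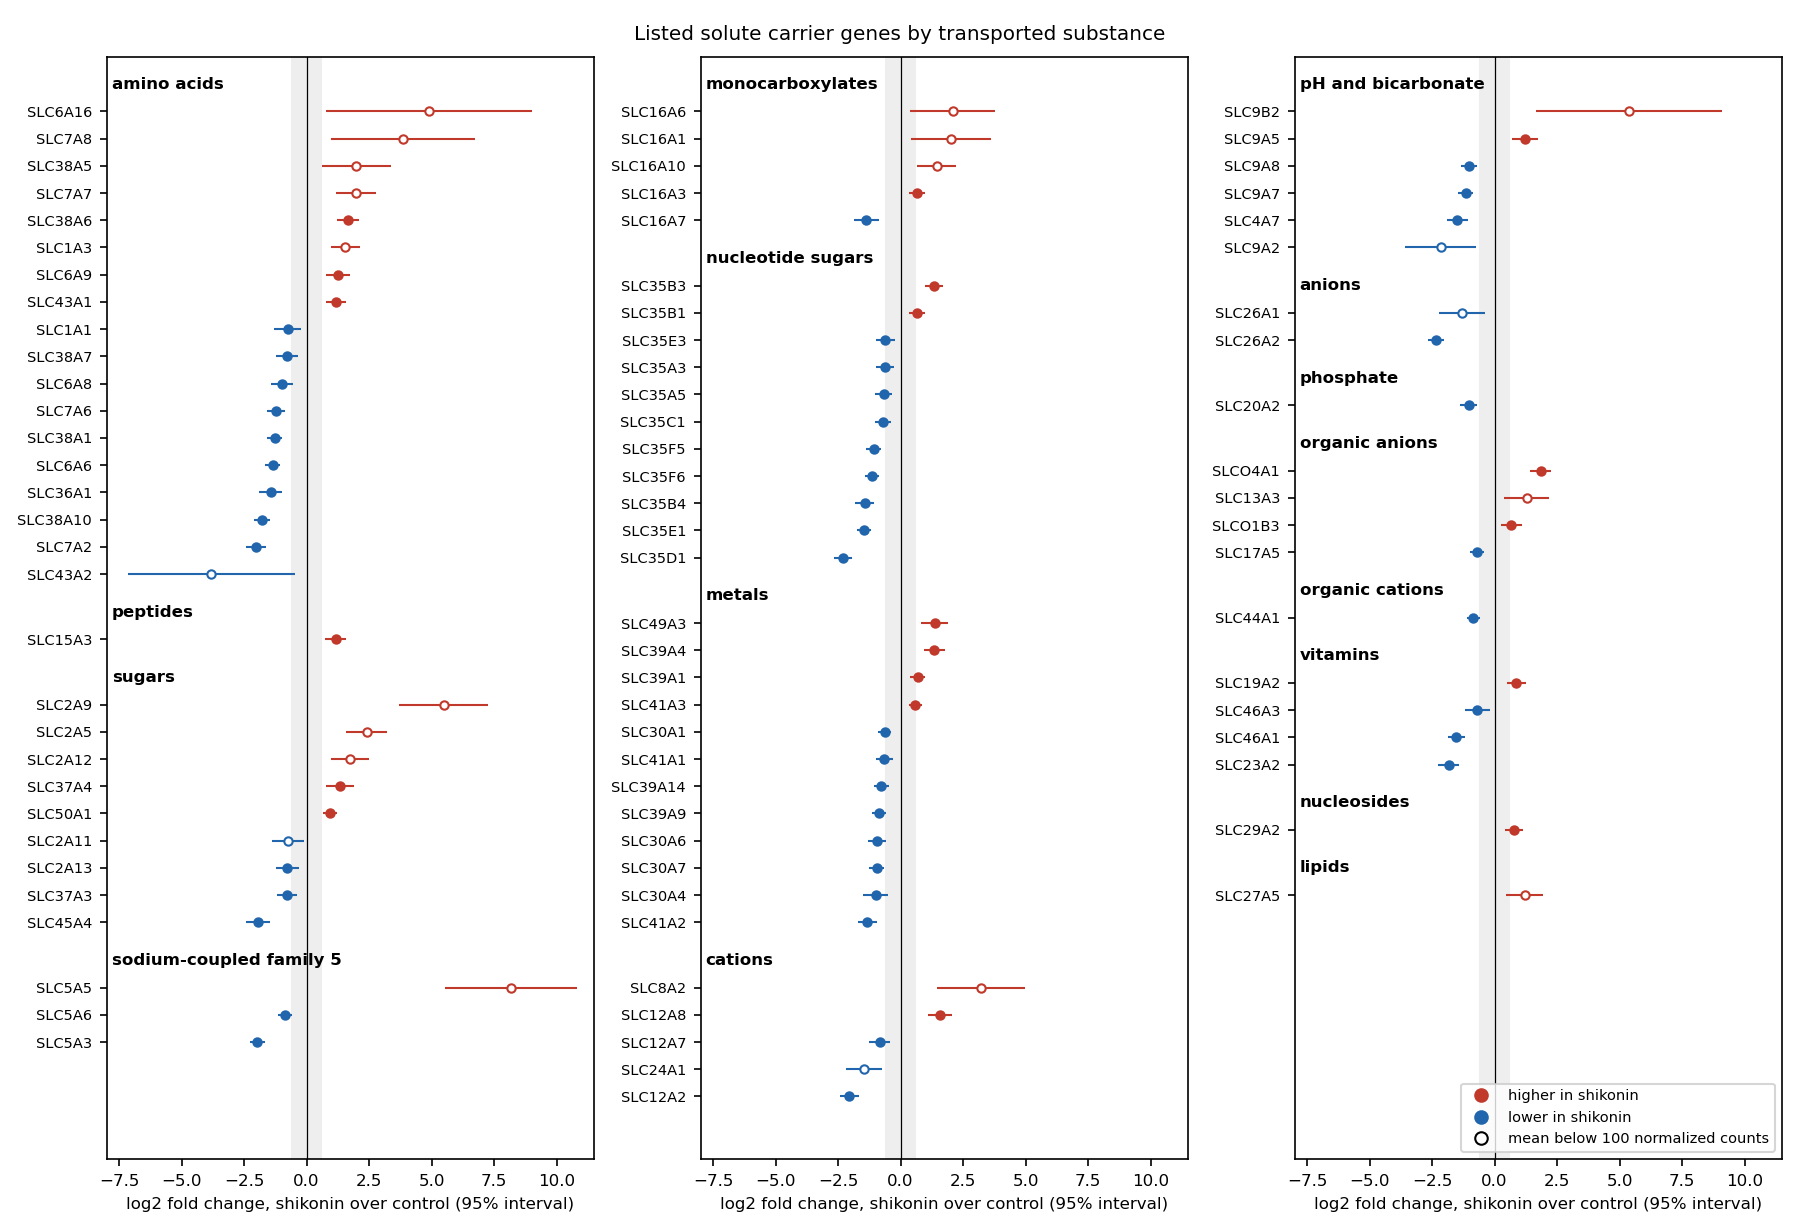
The log2 fold change of shikonin over control cells (x axis) is drawn for 84 of the 87 listed carriers, with the 95% interval as a line. Carriers are grouped by the substance class of their SLC family, and the span within 1.5-fold is in grey. Open points have a mean below 100 normalized counts: most of the widest intervals and the largest rises belong to them, while the nucleotide sugar, metal and pH groups lean to the left.

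Among families of amino acid carriers 8 members rose and 10 fell, with a median log2 fold change of -0.77. Substance classes here follow the SLC number, so the aromatic amino acid carrier SLC16A10 is counted with the monocarboxylate family. The members with the highest counts were lower in shikonin cells. SLC38A1, a sodium-coupled glutamine carrier, had an implied 1464 normalized counts in shikonin cells and 3553 in control cells, 2.43-fold lower (1.98 to 2.98). SLC6A6, the taurine transporter, had 1026 in shikonin cells and 2638 in control cells, 2.57-fold lower (2.07 to 3.19). SLC38A10, a less studied member of the glutamine family, had 686 in shikonin cells and 2353 in control cells, 3.43-fold lower (2.75 to 4.28). Of the exonic length of SLC38A10, 15.4% lies opposite AC027601.4. SLC7A2, which takes up arginine and lysine, had 173 in shikonin cells and 708 in control cells, 4.10-fold lower (3.10 to 5.41). Of these 4 SLC7A2 had the largest fall and SLC38A1 the smallest, with intervals that do not overlap. The adjusted p in the authors' deposited table was 2.69e-16 for SLC38A1, 2.16e-16 for SLC6A6, 3.55e-26 for SLC38A10 and 6.44e-22 for SLC7A2. Also lower were SLC36A1, a proton-coupled carrier of the lysosome (2.71-fold), SLC6A8, the creatine transporter (1.98-fold, uncertain because a near-identical pseudogene can share its reads), SLC38A7, which lets glutamine and asparagine out of lysosomes (1.73-fold), and SLC1A1, a glutamate carrier (1.70-fold).

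The family of light chains that pair with the heavy chain SLC3A2 was split. SLC7A6, which exchanges arginine for glutamine, had 508 in shikonin cells and 1180 in control cells, 2.32-fold lower (1.81 to 2.97), while its close relative SLC7A7 had 148 in shikonin cells and 37.7 in control cells, 3.94-fold higher (2.27 to 6.83). SLC7A6 shares 59.4% of its exonic length with genes on the opposite strand, among them SLC7A6OS, and its value is uncertain because it is not given whether counting used strand. SLC7A8, another light chain, had 12.5 in shikonin cells and 0.860 in control cells. The left-out partners also went both ways: SLC3A2 had 13531 in shikonin cells and 4125 in control cells, and SLC7A5 had 4525 in shikonin cells and 11467 in control cells. The branched-chain carriers of family 43 were split too. SLC43A1 was 2.25-fold higher (1.69 to 3.00), and SLC43A2 had 3.57 in shikonin cells and 50 in control cells, 14-fold lower with the widest interval among the members that fell (1.40 to 140). SLC43A2 had the largest adjusted p of the members in the authors' deposited table, 0.0414, and SLC7A8 had 0.016.

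Other amino acid carriers rose, most of them at low or moderate levels. SLC38A6 had 273 in shikonin cells and 86.4 in control cells, 3.16-fold higher (2.30 to 4.34), and 11.7% of its exonic length lies opposite other genes, among them TRMT5. SLC1A3, a glutamate carrier, had 144 in shikonin cells and 49.3 in control cells. SLC6A9, the glycine transporter GlyT1, was 2.38-fold higher at 380 in shikonin cells and 160 in control cells. SLC38A5 reached 25.3 in shikonin cells, against 6.38 in control cells, and SLC6A16, an orphan member, 4.63 against 0.155 in control cells. The lysosomal peptide and histidine carrier SLC15A3 was 2.24-fold higher (1.67 to 3.00), at 494 in shikonin cells and 220 in control cells.

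Sugar carriers went in both directions, with 5 higher and 4 lower, and the largest rises were in members with low counts. SLC2A9, known mainly as a urate carrier, had 52.2 normalized counts in shikonin cells and 1.17 in control cells, 44.7-fold higher (12.9 to 155). SLC2A5, the fructose transporter, had 78.7 in shikonin cells and 14.9 in control cells, 5.29-fold higher (2.97 to 9.42). SLC2A12, an insulin-sensitive glucose carrier, had 108 in shikonin cells and 32.2 in control cells, but 38.9% of its exonic length lies opposite TBPL1, so this value is uncertain. SLC50A1, the only human member of the SWEET family, had 1491 in shikonin cells and 771 in control cells, 1.93-fold higher (1.59 to 2.35), but 1.47-fold and no longer past 1.5-fold under equal totals. SLC37A4, which brings glucose-6-phosphate into the endoplasmic reticulum, was 2.50-fold higher (1.70 to 3.69), with 15.2% of its exonic length opposite TRAPPC4. SLC45A4 had 144 in shikonin cells and 554 in control cells, 3.84-fold lower (2.73 to 5.41). SLC2A13, a proton-coupled inositol carrier, was 1.70-fold lower (1.23 to 2.35). SLC37A3 was 1.73-fold lower, and SLC2A11 1.69-fold lower. SLC2A11 has exons of other genes over it on both strands, so its value is uncertain. The authors' deposited table gave an adjusted p of 9.13e-09 for SLC2A9, 6.74e-08 for SLC2A5, 1.17e-13 for SLC45A4 and 0.00251 for SLC2A13. SLC2A1, the main glucose carrier of most cancer lines and outside the rule, was not listed.

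The sodium-coupled family 5 held the largest rise and a large fall. SLC5A5, the sodium/iodide symporter of thyroid and lactating breast (chromosome 19, 17871973 to 17895174, plus strand, 15 exons, hg38), had an implied 46.8 normalized counts in shikonin cells and 0.161 in control cells. The authors' deposited table gives SLC5A5 a log2 fold change of 8.19 with a standard error of 1.35 and an adjusted p of 6.38e-09. With a control mean below 1, the size of that fold rests on counts near 0, and the level in shikonin cells is the firmer value. The folds of SLC9B2, SLC6A16 and SLC7A8 also rest on control counts near 0. For SLC9B2 and SLC6A16 the shikonin level is not firm either, with implied means of 6.54 and 4.63. SLC5A3, which takes up myo-inositol as an osmolyte, had 470 in shikonin cells and 1836 in control cells, 3.91-fold lower (3.16 to 4.83), and SLC5A6, which takes up biotin and pantothenate, was 1.84-fold lower (1.51 to 2.23). The authors' deposited table lists SLC5A3 with an adjusted p of 1.07e-34.

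Among the 5 listed members of the monocarboxylate family SLC16, 4 rose and 1 fell. SLC16A3 (MCT4), which exports lactate from glycolytic cells, was the most abundant member of all, with 16696 normalized counts in shikonin cells and 10585 in control cells, 1.58-fold higher (1.26 to 1.98). On a per-kilobase scale it also ranked first, with 3457 in shikonin cells and 2192 in control cells, ahead of SLC39A1 with 1492 in shikonin cells and 932 in control cells. SLC16A1 (MCT1) stood far below it, at 28.9 in shikonin cells and 7.16 in control cells. SLC16A6 had 16.1 in shikonin cells and 3.79 in control cells, 4.24-fold higher (1.31 to 13.7). The aromatic amino acid carrier SLC16A10 was 2.72-fold higher. SLC16A7 (MCT2), a high-affinity lactate and pyruvate carrier, had 102 in shikonin cells and 262 in control cells, 2.58-fold lower (1.80 to 3.69). The adjusted p in the authors' deposited table was 0.000196 for SLC16A3, 0.0272 for SLC16A6 and 7.46e-07 for SLC16A7. The glycoproteins that carry these proteins to the surface are BSG, which serves MCT1 and MCT4, and EMB, which serves MCT2. BSG, picked out after its values were seen, had 19661 in shikonin cells and 11113 in control cells, and EMB had 132 in shikonin cells and 281 in control cells. When the totals of the listed genes were made equal between the groups, SLC16A3 no longer passed 1.5-fold.

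The SLC35 family, known for supplying the Golgi and endoplasmic reticulum, was mostly lower: 9 of 11 listed members fell. The median log2 fold change of the 11 was -0.71. Members were grouped by symbol, and not all have a known substrate. The sulfate carrier SLC26A2 belongs to the same supply route, since sulfate taken up from the medium is made into the donor used on heparan and chondroitin chains, and its inherited loss impairs cartilage. SLC26A2 (chromosome 5, 149960737 to 149993455, plus strand, 3 exons, hg38) had 233 normalized counts in shikonin cells and 1197 in control cells, 5.13-fold lower (4.11 to 6.41). SLC35D1, which carries UDP-glucuronic acid and UDP-N-acetylgalactosamine for chondroitin synthesis (chromosome 1, 66999332 to 67054099, minus strand, 12 exons), had 131 in shikonin cells and 650 in control cells, 4.98-fold lower (3.87 to 6.39). SLC26A2 had the smallest adjusted p of the members in the authors' deposited table, 5.16e-45, and SLC35D1 had 3.1e-34. SLC35E1, an orphan member with the highest mean count of the family, had 1682 in shikonin cells and 4652 in control cells, 2.77-fold lower (2.28 to 3.35). SLC35B4, a carrier of UDP-xylose and UDP-N-acetylglucosamine, was 2.72-fold lower (2.10 to 3.51). The remaining falls were smaller: 2.19-fold for SLC35F6, 2.11-fold for SLC35F5, 1.64-fold for the GDP-fucose carrier SLC35C1, 1.61-fold for SLC35A5, and 1.53-fold each for SLC35A3, a UDP-N-acetylglucosamine carrier, and SLC35E3.

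Both SLC35 members that rose carry nucleotides rather than sugars. SLC35B3, which moves the sulfate donor PAPS into the Golgi, had 632 in shikonin cells and 249 in control cells, 2.53-fold higher (1.96 to 3.27), and SLC35B1, which brings ATP into the endoplasmic reticulum, was 1.58-fold higher (1.27 to 1.97) and no longer passed 1.5-fold under equal totals. SLC35B3 had an adjusted p of 6.45e-12 in the authors' deposited table. The sialic acid exporter of lysosomes, SLC17A5, was 1.63-fold lower (1.33 to 1.99). SLC26A1, the other listed sulfate exchanger, had 23.2 in shikonin cells and 58.0 in control cells, with 14.6% of its exonic length opposite IDUA. Of 32 enzymes that use or make nucleotide sugars, 17 were listed, 4 higher and 13 lower. For this list and the lists of partner genes below, the background is 34.7% of all annotated protein-coding genes listed and 50.8% of all listed genes higher. The highest was UGDH, which makes UDP-glucuronic acid, with 1940 in shikonin cells and 775 in control cells, 2.50-fold higher (2.00 to 3.14). The lowest was MGAT5, which adds a branch to N-glycans, with 421 in shikonin cells and 2285 in control cells, 5.43-fold lower (4.17 to 7.07).

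Metal carriers were lower in 8 of 12 cases. All 4 listed zinc exporters fell. SLC30A1, the exporter of the plasma membrane, had 1080 normalized counts in shikonin cells and 1684 in control cells, 1.56-fold lower (1.29 to 1.88), and SLC30A4, a vesicle carrier, had 89.9 in shikonin cells and 180 in control cells, 2.00-fold lower (1.40 to 2.84). SLC30A6 and SLC30A7, which load zinc into the Golgi pathway, lay between them at 1.93-fold and 1.95-fold lower. The importers were split. SLC39A4, the intestinal zinc importer, had 890 in shikonin cells and 350 in control cells, 2.55-fold higher (1.92 to 3.38). SLC39A1 had 4063 in shikonin cells and 2538 in control cells, 1.60-fold higher (1.30 to 1.98), but 71.8% of its exonic length lies under another gene on the same strand and it no longer passed 1.5-fold under equal totals. SLC39A14, which also carries iron and manganese, had 1558 in shikonin cells and 2660 in control cells, 1.71-fold lower (1.39 to 2.09), and SLC39A9 was 1.82-fold lower (1.48 to 2.23). The authors' deposited table gave an adjusted p of 1.27e-05 for SLC30A1, 0.000295 for SLC30A4, 6e-10 for SLC39A4 and 8.59e-07 for SLC39A14. Among magnesium carriers SLC41A2 was 2.51-fold lower and SLC41A1 1.56-fold lower, while SLC41A3 was 1.51-fold higher and no longer passed 1.5-fold under equal totals. SLC49A3, an orphan of the heme carrier family, was 2.57-fold higher (1.76 to 3.77).

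Of 16 genes of zinc and copper handling, 11 were listed, 7 higher and 4 lower, where 34.7% of all annotated protein-coding genes were listed. The highest was the metallothionein MT1M, with 9.12 in shikonin cells and 0.313 in control cells, and the lowest was the copper pump ATP7B, with 99.7 in shikonin cells and 220 in control cells, 2.20-fold lower (1.54 to 3.14). Metallothioneins are short and multiply copied genes whose reads can be shared between members. Of 12 iron genes 3 were listed, from TFR2, at 42.4 in shikonin cells and 15.8 in control cells, to IREB2, an iron sensor, at 338 in shikonin cells and 1059 in control cells, 3.14-fold lower (2.43 to 4.05).

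Of 8 listed exchangers of protons and bicarbonate, which set the pH of the cell and its vesicles, 6 fell, among them 5 of 7 sodium/proton exchangers. SLC9A7 and SLC9A8, exchangers of the Golgi and its vesicles, were lower by 2.24-fold (1.80 to 2.79) and 2.03-fold (1.63 to 2.54), and SLC9A7 had an implied 1068 normalized counts in shikonin cells and 2393 in control cells. SLC9A2, a surface exchanger of epithelia, had 8.68 in shikonin cells and 38.5 in control cells, 4.43-fold lower (1.65 to 11.9). SLC9A5 was 2.32-fold higher at 174 in shikonin cells and 75.0 in control cells, and SLC9B2 reached 6.54 in shikonin cells, against 0.157 in control cells. SLC4A7, the sodium-bicarbonate carrier that loads base into breast cancer cells, had 334 in shikonin cells and 940 in control cells, 2.81-fold lower (2.09 to 3.77). The adjusted p in the authors' deposited table was 0.00614 for SLC9A2, 0.00866 for SLC9B2 and 4.13e-11 for SLC4A7. Carbonic anhydrases, which make bicarbonate and protons for these carriers, were listed in 5 of 7 cases, 3 higher and 2 lower. Over all annotated protein-coding genes 34.7% were listed. CA2 had 234 in shikonin cells and 4.67 in control cells, 50.1-fold higher (26.9 to 93.4), and CA13 had 204 in shikonin cells and 419 in control cells, 2.06-fold lower (1.60 to 2.66).

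Of the cation-chloride cotransporters, SLC12A2 (NKCC1), which brings sodium, potassium and chloride into the cell, had 236 in shikonin cells and 978 in control cells, 4.15-fold lower (3.18 to 5.41). SLC12A7, which lets potassium and chloride out, was 1.79-fold lower (1.33 to 2.42). SLC12A8 had 305 in shikonin cells and 103 in control cells, 2.96-fold higher (2.11 to 4.16). The calcium exchangers went in both directions at low levels, with SLC8A2 at 22 in shikonin cells and 2.35 in control cells, 9.39-fold higher (2.76 to 31.9), and SLC24A1 at 43.9 in shikonin cells and 122 in control cells. In the authors' deposited table the adjusted p was 2.42e-24 for SLC12A2, 1.86e-09 for SLC12A8 and 0.000777 for SLC8A2. The kinase WNK1 turns NKCC1 on and the potassium-chloride exporters off through phosphorylation. Of 16 genes of that cascade and of carrier turnover 6 were listed, 1 higher and 5 lower. WNK1 had 970 in shikonin cells and 4109 in control cells, 4.24-fold lower (3.09 to 5.81), and SGK1, a kinase that keeps carriers at the surface, had 3407 in shikonin cells and 1146 in control cells, 2.97-fold higher (2.47 to 3.58). Of 13 subunit genes of the sodium pump, whose gradient drives the sodium-coupled carriers, only the regulator FXYD5 was listed, at 4959 in shikonin cells and 2467 in control cells.

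**Figure D2:**
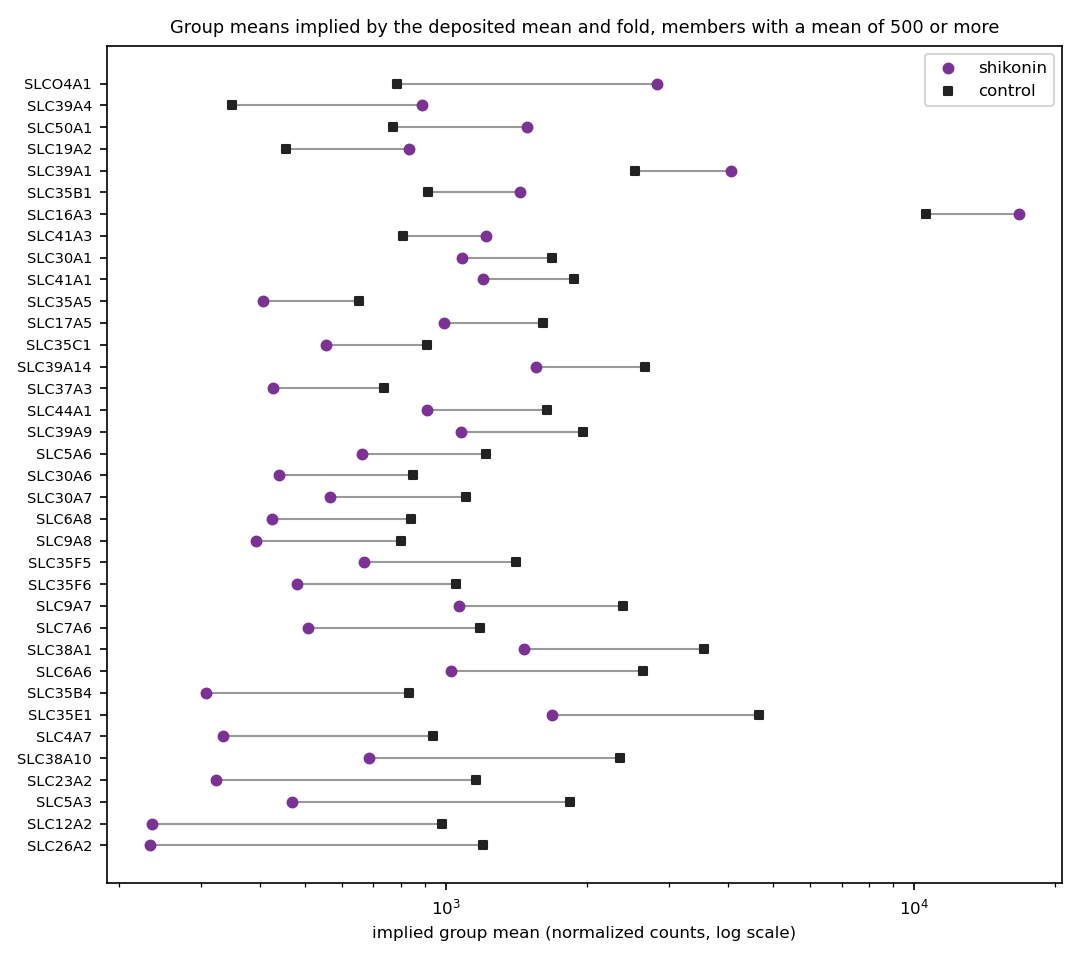
Implied group means (normalized counts, log axis) are drawn for 36 of the 38 members with a mean of at least 500, as a circle for shikonin and a square for control cells, sorted by fold. In the upper 8 genes the shikonin circle lies to the right, and in the lower 28 to the left, with SLC16A3 near 16696 and 10585 far to the right of all others.

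Among the carriers for vitamins, nucleosides, organic ions, phosphate and lipids, SLCO4A1 rose and SLC23A2 fell. The 2 changes were opposite in direction and similar in size. SLCO4A1, a carrier of thyroid hormone and other organic anions (chromosome 20, 62642445 to 62685785, plus strand, 12 exons), had 2825 normalized counts in shikonin cells and 785 in control cells, 3.60-fold higher (2.67 to 4.85), with 12.5% of its exonic length opposite its antisense gene SLCO4A1-AS1. SLCO1B3, a liver carrier of bile acids, was 1.58-fold higher, but 68.0% of its exonic length lies under another gene on the same strand. SLC13A3, a dicarboxylate carrier, had 51.9 in shikonin cells and 21.3 in control cells. Listed members of vitamin carrier families fell in 3 of 4 cases, with SLC46A3 counted by its SLC number and not by a known vitamin. SLC23A2, which takes up vitamin C, had 323 in shikonin cells and 1160 in control cells, 3.59-fold lower (2.66 to 4.83). SLC46A1, the proton-coupled folate carrier, was 2.89-fold lower (2.27 to 3.67), with 66.8% of its exonic length opposite other genes, among them SARM1, and the lysosomal SLC46A3 was 1.62-fold lower. SLC19A2, a thiamine carrier, was 1.83-fold higher (1.42 to 2.37), but did not pass 1.5-fold under equal totals. The phosphate carrier SLC20A2 was 2.06-fold lower (1.65 to 2.58) and the choline carrier SLC44A1 1.81-fold lower (1.5 to 2.17). The nucleoside carrier SLC29A2 was 1.72-fold higher (1.32 to 2.23) and also failed 1.5-fold under equal totals, with 11.1% of its exonic length opposite AP001107.9. SLC27A5, which activates bile acids and fatty acids, was 2.32-fold higher (1.39 to 3.88). The authors' deposited table gave an adjusted p of 4.64e-16 for SLCO4A1 and 5.59e-16 for SLC23A2.

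Vesicle carriers depend on the proton pump of lysosomes and endosomes and share those membranes with nutrient sensors. Of 22 genes of the vacuolar proton pump 8 were listed, 6 higher and 2 lower, where 34.7% of all annotated protein-coding genes were listed. The highest was the small subunit ATP6V1G1, with 3452 in shikonin cells and 1195 in control cells, 2.89-fold higher (2.37 to 3.51), and the lowest was the catalytic subunit ATP6V1A, with 655 in shikonin cells and 1227 in control cells, 1.87-fold lower (1.51 to 2.32). Of 23 genes of lysosomal nutrient sensing 8 were listed, 5 higher and 3 lower, from LAMTOR4, a scaffold subunit, 3.39-fold higher (2.53 to 4.54), to the kinase MTOR, with 734 in shikonin cells and 2772 in control cells, 3.78-fold lower (2.88 to 4.96). Of 17 chaperones and accessory proteins 7 were listed, 4 higher and 3 lower, and the highest was UNC93B1, 2.54-fold higher (2.03 to 3.17). The listed pump genes had a median mature length of 1418 nt, a length class (below 2500 nt) in which 91.8% of all listed protein-coding genes were higher. The listed enzymes that use or make nucleotide sugars had a median of 4550 nt.

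**Figure D3:**
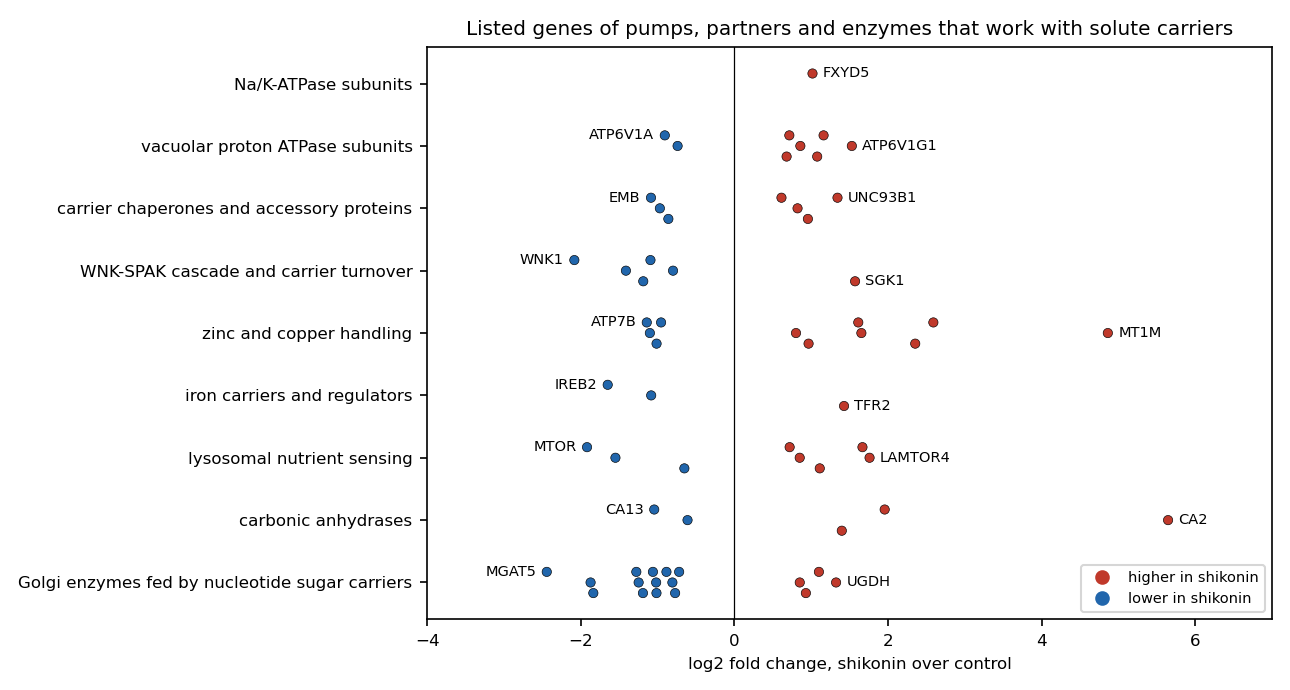
Each point is a listed gene of a pump, partner or enzyme list, placed by its log2 fold change of shikonin over control cells (x axis), with the highest and lowest gene of each list named. The row labelled Golgi enzymes holds the 17 listed enzymes that use or make nucleotide sugars, not all of them in the Golgi. They lie mostly on the lower side (13 of 17), and the 8 proton pump subunits mostly on the higher side (6 of 8).

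Direction among the carriers went with transcript length, as it did over the whole table. All 12 members with a mature length below 2500 nt were higher in shikonin cells, against 91.8% of all listed protein-coding genes of that length. From 2500 nt to below 5000 nt 22 members were higher and 23 lower, so 48.9% were higher, against 38.1% of all listed genes of that length. At 5000 nt and more 1 member was higher (SLC8A2) and 29 lower, so 3.33% were higher, against 7.77% of all listed genes of that length. The median length was 2776 nt for the members that rose and 5345 nt for those that fell. Spearman's rho of length with log2 fold change, taken over genes that are no independent replicates, was -0.622 over the 87 members and -0.700 over 6920 listed protein-coding genes, all from the same libraries. The part of length in the results by substance was not tested.

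Set against listed genes of the same length decile, some carriers still stood at the ends. A percentile of 50 is the middle of the decile, and the members' median was 58.2. SLC5A5 stood at percentile 100, SLC7A8 at 98.8, SLC2A9 at 98.6 and SLC8A2 at 98.4, but these 4 had implied control means of 0.161, 0.860, 1.17 and 2.35, so their ranks rest on counts near 0. At the low end stood SLC43A2 at 0.289, SLC45A4 at 1.88, SLC38A10 at 2.31, SLC9A2 at 2.60, SLC35D1 at 2.75, SLC12A2 at 6.79 and SLC7A2 at 7.23. Of these, SLC43A2 and SLC9A2 had low implied shikonin means, 3.57 and 8.68. SLC26A2, the member with the smallest adjusted p, stood at 11.3. The long messages SLC35E3 and SLC35A3 fell, but by less than most listed genes of their length, at percentiles 94.7 and 94.4. SLC41A3 rose, yet stood at 9.54 among short listed messages. These 3 lay at the 1.5-fold threshold, at 1.53-fold, 1.53-fold and 1.51-fold. Genes that changed by less are not listed, so such places follow from the threshold. The 4 zinc exporters stood between 59.5 and 84.4, that is above the middle of listed genes as long as they are. The 5 members of the SLC16 family stood between 59.4 and 97.1. With length taken from the transcript with the longest coding sequence, SLC30A6 moved from 59.5 to 9.39, SLC38A1 from 64.2 to 7.80 and SLC9A7 from 15.5 to 69.2, so these 3 places depend on the transcript chosen.

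**Figure D4:**
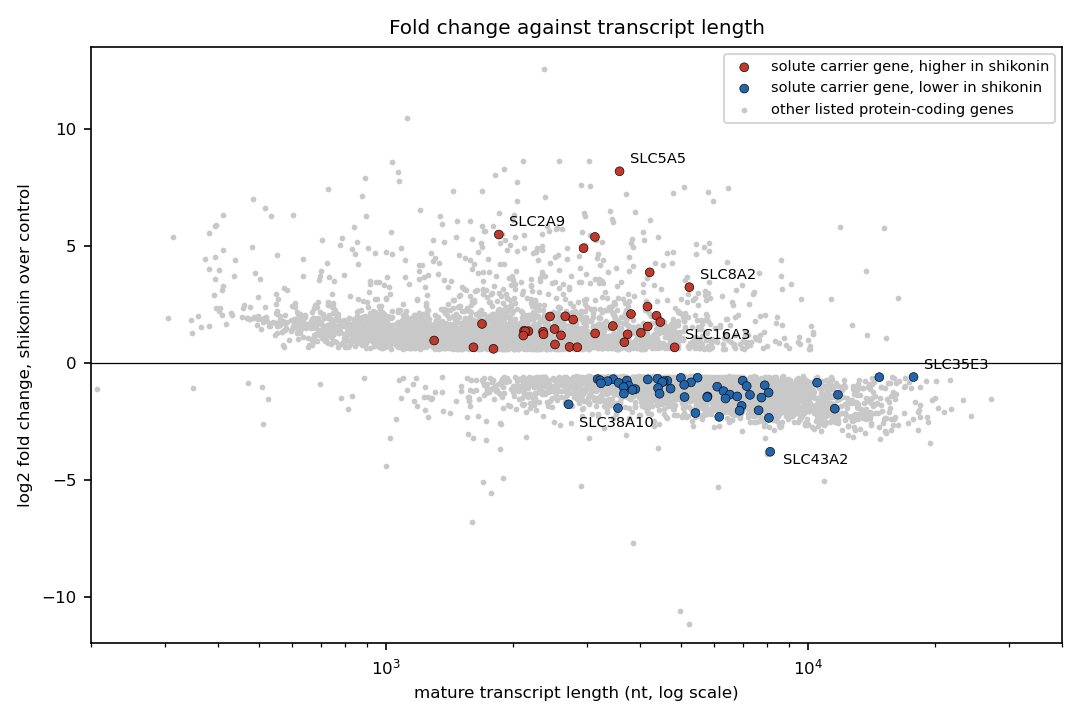
The log2 fold change of shikonin over control cells (y axis) is drawn against mature transcript length (x axis, nt, log scale) for the 87 carriers, coloured by direction, over all other listed protein-coding genes in grey. The carriers follow the grey field: those that rose crowd at the short end with a median of 2776 nt and those that fell at the long end with a median of 5345 nt.

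Promoter sequence is shown for members with large scores of fold over error, to let the carriers that rose be read beside those that fell. The 250 bases before the RefSeq start (GRCh38.p14) were held for 69 of the 87 members, and the 3 members of each direction with the largest score of fold over error and such a window are printed with SLC30A1, an exporter known to be switched on by the metal-sensing factor MTF1. Each runs 5′ to 3′ on the gene's own strand, and capitals mark a match to any of the searched motifs on either strand.
SLC35B3, chr6:8435546-8435795, minus strand: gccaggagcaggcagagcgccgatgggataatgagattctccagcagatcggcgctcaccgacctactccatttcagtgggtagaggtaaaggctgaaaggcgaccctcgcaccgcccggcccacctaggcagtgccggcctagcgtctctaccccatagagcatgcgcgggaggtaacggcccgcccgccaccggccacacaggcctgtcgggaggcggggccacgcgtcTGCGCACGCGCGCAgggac
SLC38A6, chr14:60980995-60981244, plus strand: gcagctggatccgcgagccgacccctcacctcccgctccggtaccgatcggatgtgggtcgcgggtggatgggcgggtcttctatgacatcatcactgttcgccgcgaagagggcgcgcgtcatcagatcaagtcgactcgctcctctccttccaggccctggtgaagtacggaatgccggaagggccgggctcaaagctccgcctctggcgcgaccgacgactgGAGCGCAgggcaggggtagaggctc
SLC50A1, chr1:155135125-155135374, plus strand: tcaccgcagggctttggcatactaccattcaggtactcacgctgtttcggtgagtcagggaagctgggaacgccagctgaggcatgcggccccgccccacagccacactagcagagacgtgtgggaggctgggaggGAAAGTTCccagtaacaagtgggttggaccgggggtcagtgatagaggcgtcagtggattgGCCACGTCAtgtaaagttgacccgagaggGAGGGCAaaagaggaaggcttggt
SLC26A2, chr5:149960508-149960757, plus strand: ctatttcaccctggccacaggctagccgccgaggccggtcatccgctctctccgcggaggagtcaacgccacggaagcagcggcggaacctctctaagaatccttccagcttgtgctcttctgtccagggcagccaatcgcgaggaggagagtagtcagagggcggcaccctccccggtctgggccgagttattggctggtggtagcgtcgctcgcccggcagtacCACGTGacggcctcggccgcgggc
SLC5A3, chr21:34073328-34073577, plus strand: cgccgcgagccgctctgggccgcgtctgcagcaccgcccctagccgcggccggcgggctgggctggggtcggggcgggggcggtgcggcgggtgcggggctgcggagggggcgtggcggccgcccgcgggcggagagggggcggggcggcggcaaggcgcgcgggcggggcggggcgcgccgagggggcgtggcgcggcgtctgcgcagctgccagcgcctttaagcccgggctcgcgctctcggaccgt
SLC35D1, chr1:67054149-67054398, minus strand: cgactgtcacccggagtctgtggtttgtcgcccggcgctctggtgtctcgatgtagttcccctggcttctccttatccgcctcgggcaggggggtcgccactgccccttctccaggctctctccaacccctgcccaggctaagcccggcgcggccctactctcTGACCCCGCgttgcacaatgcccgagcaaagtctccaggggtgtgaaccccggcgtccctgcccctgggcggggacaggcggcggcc
SLC30A1, chr1:211579162-211579411, minus strand: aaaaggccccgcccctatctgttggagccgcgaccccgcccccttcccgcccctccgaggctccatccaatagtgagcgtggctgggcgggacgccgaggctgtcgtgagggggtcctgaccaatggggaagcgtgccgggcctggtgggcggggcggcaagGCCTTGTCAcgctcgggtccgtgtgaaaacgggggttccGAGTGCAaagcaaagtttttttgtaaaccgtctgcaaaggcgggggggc
SLC35B3, SLC38A6 and SLC50A1 rose, and the other 4 fell. The SLC35B3 window ends in a pair of adjoining matches to a loose form of the metal response element (TGCNCNC). SLC26A2 has an E-box (CACGTG), SLC35D1 an antioxidant response element core (TGACNNNGC), and SLC5A3 no match.

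Over all windows, the metal response element core TGCNCNC was found in 17 of 28 members that rose and 21 of 41 that fell, against 48.4% of all 27305 windows. The antioxidant response element core TGACNNNGC was found in 3 that rose and 6 that fell, against 11% of all windows. The E-box CACGTG was found in 4 that rose and 4 that fell, against 6.49%. The amino acid response element TGATGNAA was found in 3 that rose (SLC1A3, SLC2A5 and SLC27A5) and 0 that fell, against 3.19%. The heat shock element GAANNTTC was found in 1 of each direction, against 5.85%, and the cyclic AMP response element TGACGTCA in 0 that rose and 1 that fell, against 1.77%. Overlaps between motifs were allowed, and a match is a run of letters, not a measured binding site.

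Other transporter sets also had more listed members lower than higher. Of 48 annotated SLC25 carriers 17 were listed (35.4%, against 34.7% of all annotated protein-coding genes). Of these, 7 were higher and 10 lower, with log2 fold changes between -0.88 and 1.14. Of 45 genes with an ABC family symbol, most of them ATP-driven transporters, 19 were listed (42.2%), 5 higher and 14 lower. The lower genes include ABCE1, ABCF1 and ABCF2, which share the family name but are not transporters. Log2 fold changes ran from -1.50 to 7.27 among the ABC genes and from -3.81 to 8.19 among the solute carriers, and the difference between the sets was not tested. The upper ends, ABCB1 and SLC5A5, had implied control means below 1 and rest on counts near 0. The implied totals of the groups, summed over the 7150 listed genes only, were also made equal, which lowers every log2 fold change by 0.394. At this setting 27 members stayed higher past 1.5-fold and 52 lower. The shift is smaller than the log2 threshold of 0.585, so no listed member could change sign and no lower member could drop out. Unlisted genes are not in these totals, and those the shift would bring past 1.5-fold cannot be seen. The 8 members that no longer passed were SLC50A1, SLC19A2, SLC29A2, SLC39A1, SLCO1B3, SLC35B1, SLC16A3 and SLC41A3. Because strandedness is not given, values are uncertain where exons of other genes covered a member: they covered at least 10% of the length of 3 members on the same strand and of 10 on the opposite strand.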

How the data were processed

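Libraries of total RNA from MDA-MB-231 cells were prepared by a NEBNext Ultra kit, per the labels' protocols. DESeq2, fastp, HISAT2 2.0.5 and the hg38 build are named in the submitters' processing notes. For the read counter, the annotation and strandedness, the sources used here give nothing. The authors' mean normalized count is a signal averaged over all libraries, as the file headers name it. Fold changes on the log2 scale, their standard errors, the Wald score and the p-values are likewise the authors' own, per the file headers. Every listed gene had an adjusted p-value below 0.05 and a fold above 1.5 in the deposited table. It holds 0 columns of per-sample values, so depth is unknown and the planned edgeR, leave-one-out and block fits could not be run.

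How many genes were tested was solved from the p, adjusted p and rank of the first 100 genes. Implied group means assume equal weight of 3 and 3 libraries. Mature lengths came from the longest APPRIS principal transcript in GENCODE 29, and 7142 genes matched by identifier. Computation used Python 3.11.15, pandas 2.3.3 and numpy 2.4.6 and was tested on simulated data. Members and lists were chosen with earlier results of these data known. Named genes are the 8 highest and 8 lowest members, the highest and lowest of each family with at least 4 listed members, the 5 with the highest means, and the highest and lowest gene of each companion list. Other members are named where their class is described. A few members are counted but not reported by name here.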

Additional observations from a re-analysis of the deposited data

How the results depend on the processing

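No paired analysis was possible because the table holds no per-sample values, and for the same reason leave-one-out and edgeR fits were not run. With a mean normalized count of at least 100, the higher members numbered 19, their share was 28.8%, and 9 families had members in both directions. With that minimum and an adjusted p below 0.001 together, an alternative chosen after seeing the data, 18 were higher. At 2-fold or more 29 members were lower, and with the 95% interval wholly beyond 1.5-fold 30 were. These counts are smaller by construction, since each setting leaves fewer members. Under equal implied totals of the listed genes 8 of the 87 members no longer passed 1.5-fold. All of them were higher in shikonin cells, since this setting lowers every log2 fold change and no lower member could drop out. Of the 32 picked by the naming rule these were SLC16A3 and SLC39A1, at log2 fold changes of 0.26 and 0.28. The other length definition gave a median percentile of 58.1. Low counts limit the 9 members with an implied control mean below 10 and the 4 with an implied shikonin mean below 10.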

Other observations

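ABC transporters, which export drugs, lipids and conjugates with ATP, are given here as values chosen after they were seen. ABCB1, the multidrug exporter P-glycoprotein, had an implied 24.6 normalized counts in shikonin cells and 0.160 in control cells. Its fold of 153.8 (95% interval 22.9 to 1033) rests on control counts near 0. ABCC2, an exporter of conjugates, had 161 in shikonin cells and 20.2 in control cells, 7.99-fold higher (95% interval 4.45 to 14.4). ABCC1, the more abundant exporter of glutathione conjugates, had 567 in shikonin cells and 1161 in control cells, 2.05-fold lower (1.58 to 2.65). ABCA1, which exports cholesterol, had 316 in shikonin cells and 896 in control cells, 2.83-fold lower (2.09 to 3.84).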
